A study of Mus musculus with 12 samples.

Results

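The genes described are 55 mouse genes that act in G2 phase and mitosis, that is the mitotic cyclins and kinases, the spindle checkpoint, the kinetochore, the mitotic kinesins, the spindle and the cytokinesis machinery. They were taken by symbol from a list that was chosen with earlier results of these data known, and matched to Ensembl identifiers. All 55 were found among the 37991 gene identifiers of the count files. All 55 passed the filter on low counts and were among the 15327 genes tested. The RNA was from primary mouse embryonic fibroblasts (MEFs) of FVB mice, isolated from 13.5-day embryos and harvested at passage 3. The 4 groups were wild type or homozygous E2f1 3KR/3KR, each left untreated or treated for 3 h with neocarzinostatin (NCS) at 250 ng/ml, with 3 samples in each group. In the 3KR knock-in allele the acetylated lysines of the transcription factor E2F1 are replaced by arginine in every cell. NCS is a radiomimetic drug that breaks DNA. The labels do not say whether the replicates came from separate embryos, so p-values measure the spread between these samples, which may be technical.

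Genes of this kind are transcribed periodically, low in G1 phase and high from late S phase to mitosis. Their promoters typically carry a cell cycle genes homology region (CHR), which is bound by the MuvB core complex together with the repressors of the DREAM complex in resting or arrested cells, or with B-MYB and FOXM1 in dividing cells. Many also carry CCAAT boxes, which are bound by NF-Y. After DNA damage, p53 raises the CDK inhibitor p21, which favours the repressive DREAM form, and fibroblasts are known to lower mitotic transcripts as they arrest. The mRNA was measured in bulk cultures, so fewer cells in G2 and mitosis cannot be told apart from less RNA per cell.

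The promoters of 9 members are shown because they span the 3 outcomes seen after NCS, with CHR letters (TTTGAA or TTTAAA) and CCAAT boxes in capitals, on either strand. Each is given from 120 bases before the start of the gene to 30 bases after it, from RefSeq (GRCm38.p6), with the first base of the gene counted as 1 and the base before it as -1. Plk1 (chr7:122159315-122159464, plus strand), Aspm (chr1:139454653-139454802, plus strand), Cenpf (chr1:189688057-189688206, minus strand), Ccnb1 (chr13:100786457-100786606, minus strand) and Cdc20 (chr4:118437314-118437463, minus strand) fell after NCS in both genotypes.
Plk1: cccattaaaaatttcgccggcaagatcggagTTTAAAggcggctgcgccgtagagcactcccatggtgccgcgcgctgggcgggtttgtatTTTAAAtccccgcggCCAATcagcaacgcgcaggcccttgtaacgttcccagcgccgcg
Aspm: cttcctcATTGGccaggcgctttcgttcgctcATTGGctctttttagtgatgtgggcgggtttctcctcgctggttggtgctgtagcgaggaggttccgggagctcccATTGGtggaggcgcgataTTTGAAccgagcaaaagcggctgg
Cenpf: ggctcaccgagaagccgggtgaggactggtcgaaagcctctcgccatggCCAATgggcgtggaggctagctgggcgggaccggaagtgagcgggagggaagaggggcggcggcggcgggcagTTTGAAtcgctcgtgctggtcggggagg
Ccnb1: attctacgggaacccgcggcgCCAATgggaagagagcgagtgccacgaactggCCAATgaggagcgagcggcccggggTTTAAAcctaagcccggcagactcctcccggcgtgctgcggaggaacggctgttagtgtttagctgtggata
Cdc20: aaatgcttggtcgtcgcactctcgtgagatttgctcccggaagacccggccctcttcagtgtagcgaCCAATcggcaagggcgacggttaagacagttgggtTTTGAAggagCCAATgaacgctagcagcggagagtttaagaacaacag
Ckap2 (chr8:22185790-22185939, minus strand), Gtse1 (chr15:85859587-85859736, plus strand) and Psrc1 (chr3:108383684-108383833, plus strand) rose after NCS in both genotypes. Gtse1 and Psrc1 each have a further window in the reference, which is not printed.
Ckap2: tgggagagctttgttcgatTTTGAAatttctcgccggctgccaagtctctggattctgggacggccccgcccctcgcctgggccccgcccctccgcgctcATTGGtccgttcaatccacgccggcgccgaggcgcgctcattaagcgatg
Gtse1: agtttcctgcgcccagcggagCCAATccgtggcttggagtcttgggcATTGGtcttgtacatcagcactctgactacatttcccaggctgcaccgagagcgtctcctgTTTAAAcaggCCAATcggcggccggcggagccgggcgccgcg
Psrc1: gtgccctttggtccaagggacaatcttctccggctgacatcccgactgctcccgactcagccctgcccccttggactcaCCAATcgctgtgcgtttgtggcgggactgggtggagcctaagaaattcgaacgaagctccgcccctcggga
Spc25 (chr2:69206184-69206333, minus strand) was not called in either genotype.
Spc25: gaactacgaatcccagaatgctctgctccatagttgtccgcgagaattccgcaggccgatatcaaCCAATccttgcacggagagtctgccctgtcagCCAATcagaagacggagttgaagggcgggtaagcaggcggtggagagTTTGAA

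TTTGAA was present within the 300 bases around the start in 30 of the 45 members with a RefSeq promoter, or 66.7%, against 20.2% of 27025 genes with a promoter. TTTAAA was present in 12 of 45, or 26.7%, against 14.9% of all genes, and CCAAT in 34 of 45, or 75.6%, against 41.1%. Both strands were searched, TTTAAA reads the same on either strand, and none of the 3 motifs contains another. For 5 members the reference gives more than 1 start, and a site that lay in several of their windows was counted once, from the first start listed. Of the 38 TTTGAA sites, 27 began between 60 bases before and 50 bases after the start, among them that of Plk1 at base 31, just past the stretch shown, and those of Cenpf at base 3 and Aspm at base 7. Among the 39 members with a promoter that fell after NCS in wild-type MEFs, 28 held TTTGAA. Of the 3 that rose, only Ckap2 held it, with its first base at -101. Gtse1 held TTTAAA at -12 and 31, and Psrc1 held CCAAT boxes but neither TTTGAA nor TTTAAA in these windows. No other letters were searched for as a CHR, and the stretch of Psrc1 shown holds ttcgaa, which was not counted. Of the 3 with a promoter that were not called, Spc25 held TTTGAA. With only the 200 bases before the start, TTTGAA was found in 14 members, or 31.1%, against 14.4% of all genes. TTTAAA was found there in 7, or 15.6%, against 10.7%, and CCAAT in 33, or 73.3%, against 32.75%. A match is a description of these letters and not a shown binding site.

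**Figure D1:**
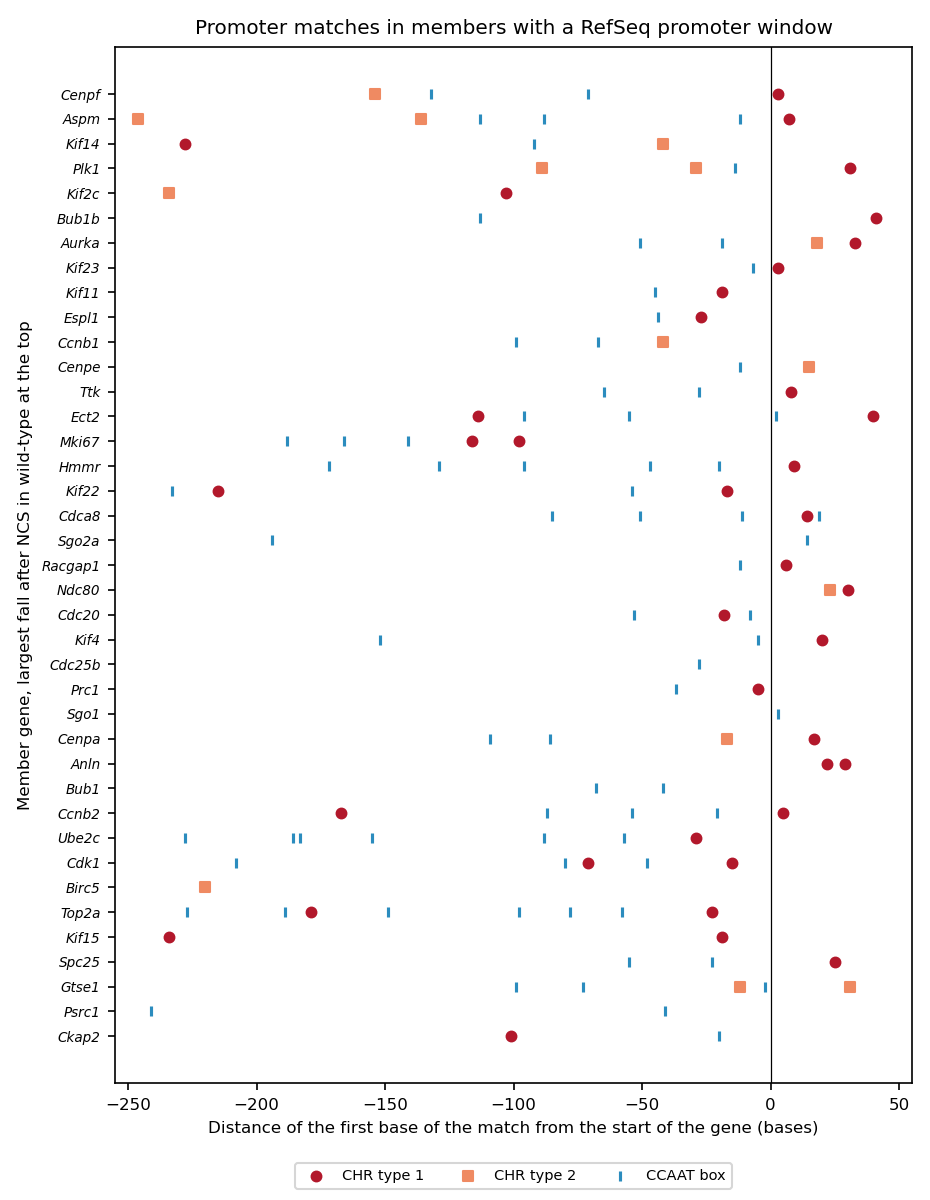
Position of promoter matches in members with at least 1 match, against distance from the start of the gene in bases (x axis), with the member that fell most after NCS in wild-type MEFs at the top (y axis). CHR type 1 is TTTGAA, CHR type 2 is TTTAAA and the bars are CCAAT boxes. Each site is drawn once. Of 38 CHR type 1 sites, 27 lie between -60 and 50, with a median of -10 over all 38, and the median of the CCAAT boxes is -67.

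Counted reads per sample ranged from 33203757 to 45279321. Fibroblast markers were present in every group, none of 11 was at or under 3 counts, and their summed level was 27800 to 33600 TPM, a level scaled by gene length and library. Wild-type replicate 3 stood apart from the other wild-type samples in both treatments, with chi-square values per gene of 7.57 to 9.37 against it and at most 2.34 for all other pairs of a group. On the members themselves its median was 0.021 (log2) above the other 2 untreated samples and -0.046 against the other 2 NCS samples. The second value was the largest such deviation of any sample. With NCS, wild-type replicate 3 was the lowest of its group in 30 of the 55 members. The 3KR MEFs all carried Xist, at 30590.0 to 35635 normalized counts against at most 62.5 in wild type, and Ddx3y was at most 16.2 against at least 5370.3. The genotypes therefore differ in sex as well as in E2f1, and the 2 cannot be told apart. E2f1 mRNA was 1042, 1099 and 1296 normalized counts in untreated wild-type MEFs, 1173, 1261 and 1277 in NCS-treated wild-type MEFs, 1125, 1111 and 1128 in untreated 3KR MEFs and 1259, 1167 and 1243 in NCS-treated 3KR MEFs, and a change of lysine codons cannot be read from this level. Normalized counts are counts divided by DESeq2 size factors.

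The members together took 0.256% to 0.257% of counted reads in untreated wild-type MEFs and 0.164% to 0.168% after NCS. In 3KR MEFs they took 0.302% to 0.307% without treatment and 0.230% in each sample after NCS. No group overlapped another in this share, and the NCS-treated 3KR samples lay between the untreated and the treated wild-type samples. Levels per length ran from 3.49 TPM for Sgo2a, which protects centromeric cohesion, to 143.6 TPM for Cdc20, the mitotic activator of the anaphase-promoting complex (APC/C), with a median of 27.3 TPM over the 55 members. In 37 of the 55 members the group means ran in the same order, from untreated 3KR through untreated wild type and NCS-treated 3KR to NCS-treated wild type. The next most common order, in 11 members, ran from untreated 3KR through NCS-treated 3KR and untreated wild type to NCS-treated wild type.

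**Figure D2:**
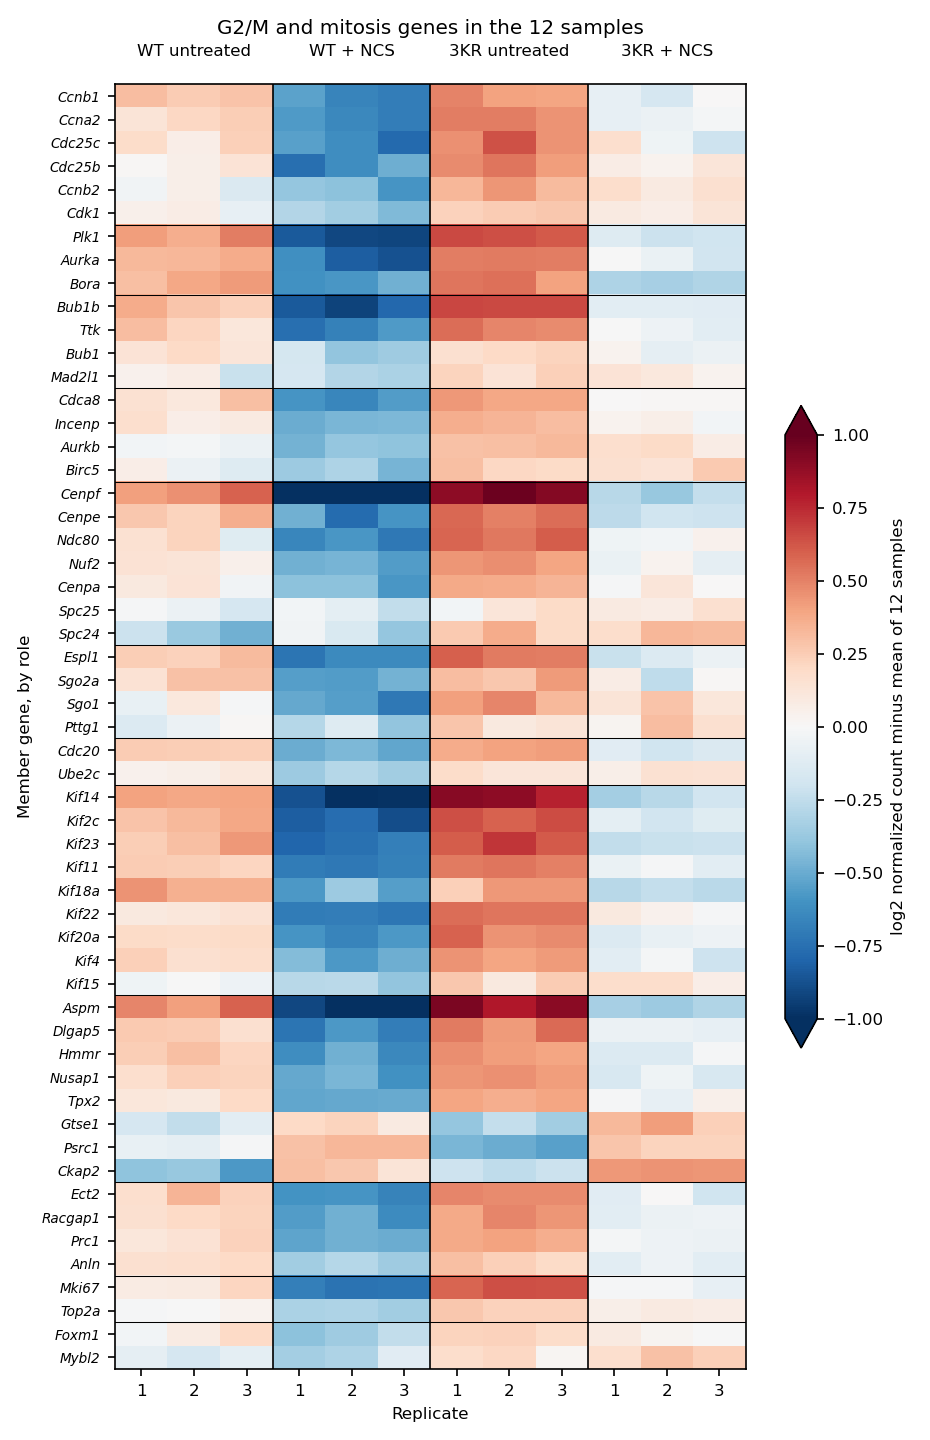
Level of each of the 55 members (rows, grouped by role and divided by lines) in the 12 samples (columns, 3 replicates of each group), as log2 normalized count minus the member's mean over the 12 samples, on a colour scale that ends at -1 and 1. Nearly all rows are blue in NCS-treated wild-type MEFs and red in untreated 3KR MEFs, and the rows of Gtse1, Psrc1 and Ckap2 are redder with NCS than without.

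Most of the members were lower after 3 h of NCS in wild-type MEFs. In the edgeR quasi-likelihood test with Benjamini-Hochberg adjustment over all genes, 48 of the 55 fell, 3 rose and 4 were not called at an adjusted p of 0.05, where 12.4% of all genes tested were called lower and 14.3% higher. The median log2 fold change of the members was -0.74, against 0.0054 over all genes. In 47 members every NCS sample lay below every untreated sample, as did 16.5% of all genes. The falls ranged from -1.60 for Cenpf to -0.23 for Mad2l1, whose groups overlapped although it was called.

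In 3KR MEFs the direction was the same and the median fall was smaller. There 44 of 55 fell, 3 rose and 8 were not called, with 15.0% of all genes called lower and 15.8% higher. The median was -0.50 for the members, against -0.00078 for all genes, and in 45 members the NCS samples all lay below the untreated ones, against 23.6% of all genes. The same 3 genes, Ckap2, Gtse1 and Psrc1, rose in both genotypes, and 44 members fell in both. Mad2l1, Birc5, Ube2c and Kif15 fell in wild-type MEFs and were not called in 3KR MEFs, and the difference between the genotypes passed its own test for Birc5 and Ube2c. Scaled by library totals alone, 50 members fell and 3 rose in wild-type MEFs against 18.8% lower and 9.55% higher over all genes, and 44 fell and 3 rose in 3KR MEFs against 21.4% and 11.2%.

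**Figure D3:**
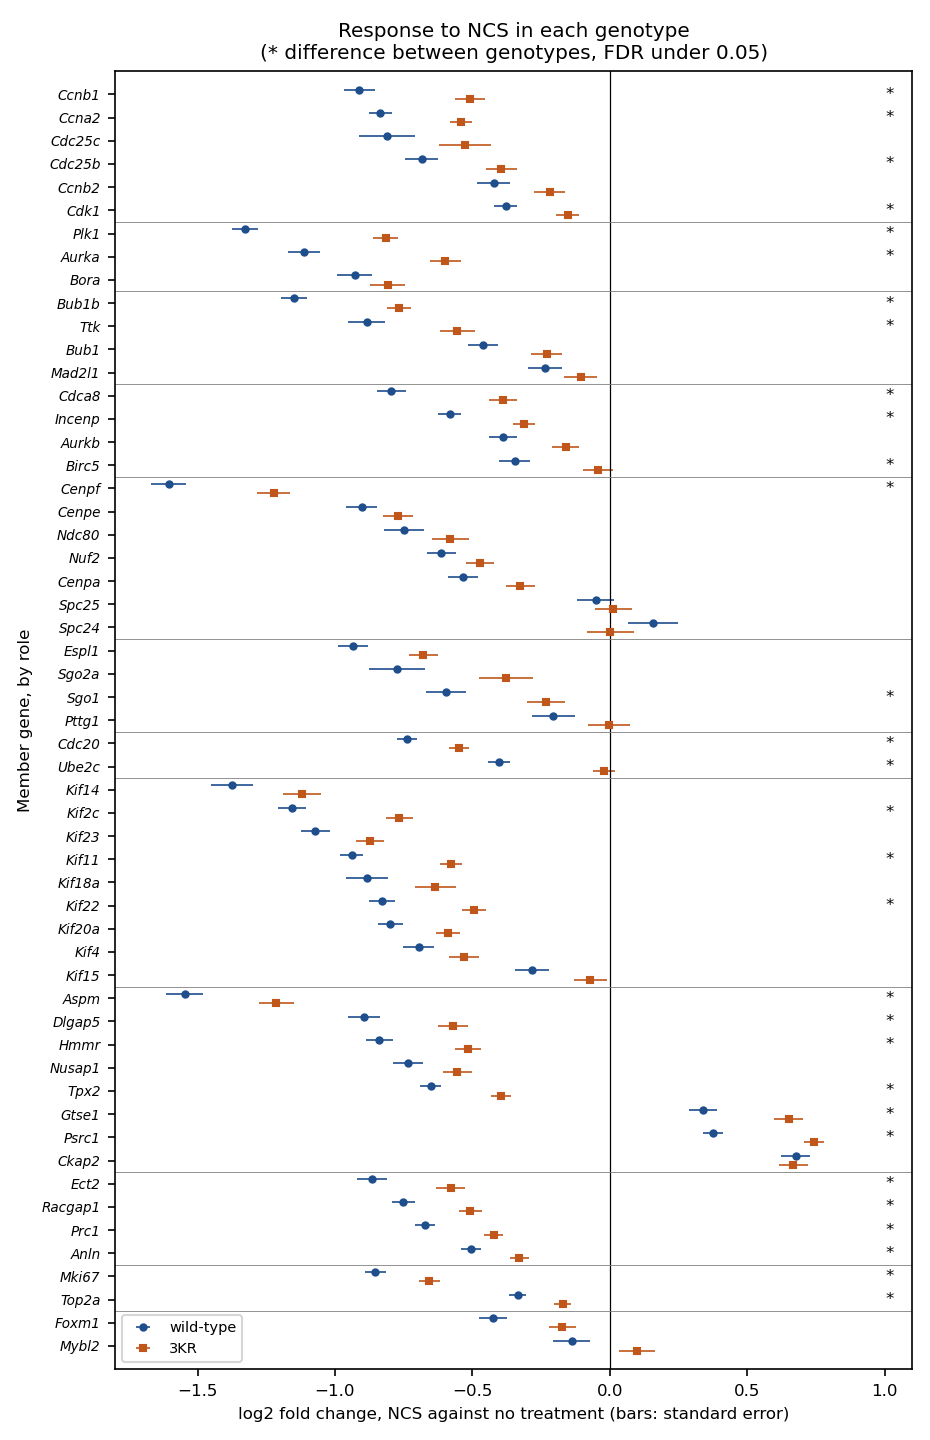
Log2 fold change of each member after NCS against no treatment (x axis, bars are standard errors of the fit), for wild-type MEFs (blue circles) and 3KR MEFs (orange squares), with members grouped by role. Points left of 0 fell, the wild-type point lies to the left in 53 of 55 members, and a star marks the 30 members whose response differed between the genotypes.

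The mitotic cyclins, their kinase Cdk1 and the Cdc25 phosphatases that activate it fell as a whole, 6 of 6 in each genotype, with adjusted p-values of at most 1.08e-05 in wild-type and 0.007 in 3KR MEFs (edgeR). Ccna2 encodes cyclin A2, which acts in S phase and at entry into mitosis. It stood at 2626, 2768 and 2845 normalized counts in untreated wild-type MEFs, 1619.6, 1529.5 and 1481 in NCS-treated wild-type MEFs, 3410.2, 3419.5 and 3279.7 in untreated 3KR MEFs and 2269, 2306 and 2360.4 in NCS-treated 3KR MEFs. The NCS samples lay below the untreated samples in both genotypes, with log2 fold changes of -0.83 ± 0.043 and -0.54 ± 0.041 (± SE). Reads of Ccna2 may include some of Exosc9, whose exons overlap it on the other strand. Ccnb1, cyclin B1, was the member of the group with the largest fall in wild-type MEFs, by 46.8% against 29.7% in 3KR MEFs. Cdk1 fell least, with -0.38 ± 0.043 in wild-type and -0.15 ± 0.042 in 3KR MEFs. For Cdc25b, whose phosphatase acts early at mitotic entry, the changes were -0.69 ± 0.060 and -0.40 ± 0.056, and for Cdc25c -0.81 ± 0.10 and -0.53 ± 0.095.

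Plk1, Aurka and Bora encode the kinases Polo-like kinase 1 and Aurora A and the cofactor through which Aurora A activates Plk1 before mitosis. All 3 fell in both genotypes. Plk1 stood at 2120.0, 2032 and 2260.3 normalized counts in untreated wild-type MEFs, 885, 841 and 838 in NCS-treated wild-type MEFs, 2505, 2471 and 2416 in untreated 3KR MEFs and 1444, 1366 and 1380.3 in NCS-treated 3KR MEFs. Its 4 groups did not overlap, and it fell by 60.1% in wild-type MEFs (log2 -1.33 ± 0.048, adjusted p = 2.08e-15, edgeR) and by 43.2% in 3KR MEFs (-0.82 ± 0.046, adjusted p = 2.67e-12). Aurka stood at 1567, 1578 and 1619.7 normalized counts in untreated wild-type MEFs, 818, 706 and 686 in NCS-treated wild-type MEFs, 1789, 1795 and 1781 in untreated 3KR MEFs and 1247, 1192 and 1099 in NCS-treated 3KR MEFs. It showed the same order of groups with no overlap. The log2 changes of Aurka were -1.11 ± 0.059 (adjusted p = 1.16e-12, edgeR) and -0.60 ± 0.056 (adjusted p = 1.49e-08). Bora fell in both genotypes, with log2 changes of -0.93 ± 0.065 and -0.81 ± 0.064, and the difference of 0.12 ± 0.091 was not called.

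**Figure D4:**
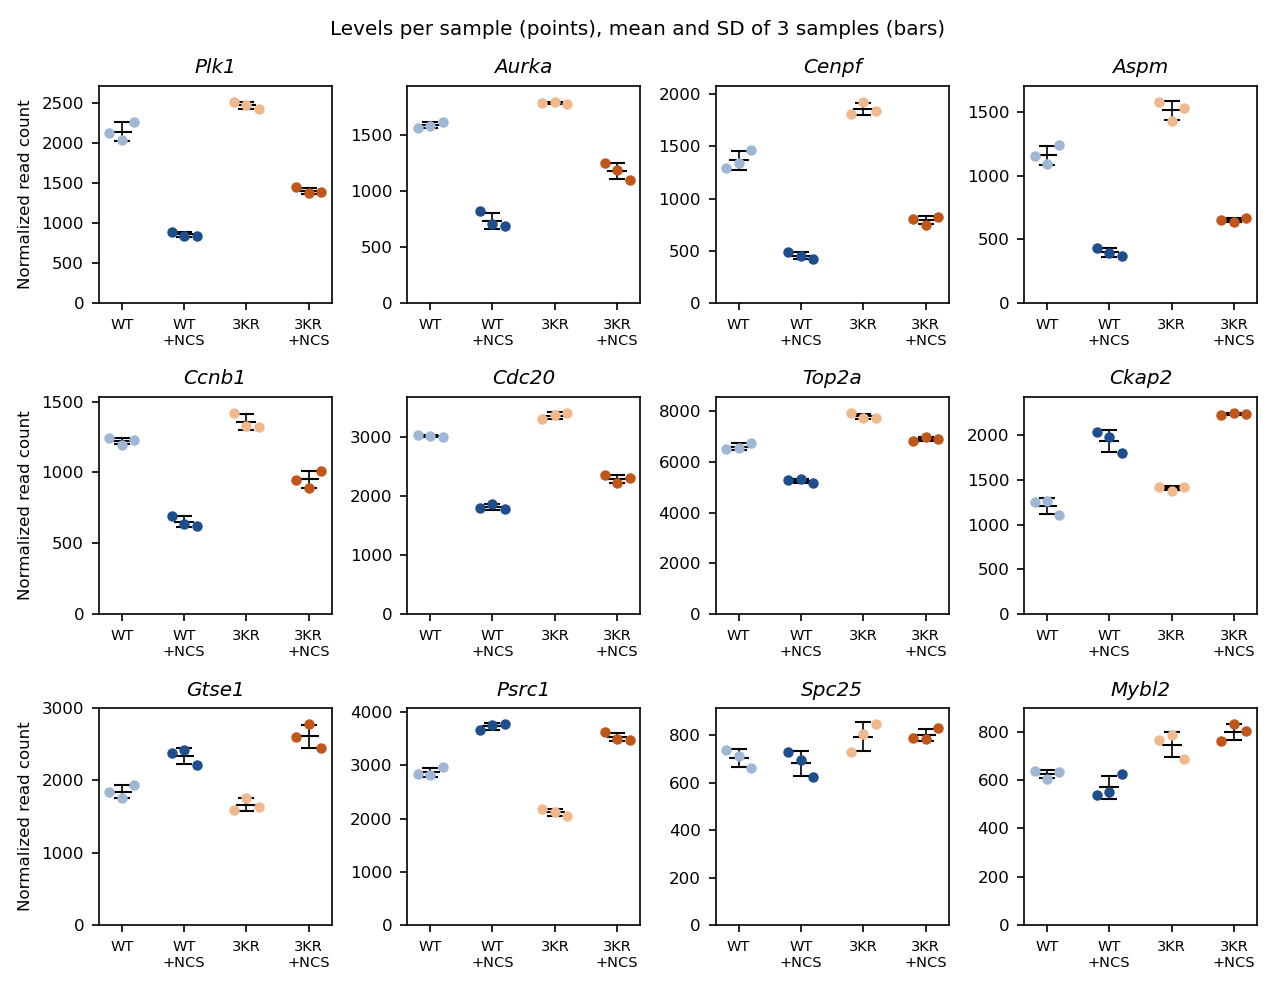
Normalized read counts (y axis, from 0) of 12 members in each sample (points) with the mean and SD of 3 samples (bars), for wild-type (blue) and 3KR (orange) MEFs without treatment (light) and with NCS (dark). Plk1, Aurka, Cenpf and Aspm show 4 separate groups, Ckap2, Gtse1 and Psrc1 are higher with NCS, and the groups of Spc25 and Mybl2 with and without NCS overlap.

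The spindle checkpoint genes hold back anaphase until every kinetochore is attached. All 4 fell in wild-type MEFs and 3 of 4 in 3KR MEFs. Bub1b, which encodes the checkpoint protein BubR1, stood at 2042, 1919 and 1857 normalized counts in untreated wild-type MEFs, 885, 833 and 916 in NCS-treated wild-type MEFs, 2506, 2491 and 2500.5 in untreated 3KR MEFs and 1466, 1470.1 and 1459.9 in NCS-treated 3KR MEFs. No group overlapped another, and its log2 changes after NCS were -1.15 ± 0.047 (adjusted p = 1.24e-14, edgeR) and -0.77 ± 0.044 (adjusted p = 3.93e-12). Ttk, the checkpoint kinase Mps1, changed by log2 -0.88 ± 0.067 and -0.55 ± 0.063, and Bub1 by -0.46 ± 0.056 and -0.23 ± 0.055. Mad2l1, the checkpoint protein Mad2, fell in wild-type MEFs (log2 -0.23 ± 0.062), and its value of -0.11 ± 0.060 in 3KR MEFs was not called (adjusted p = 0.199, edgeR).

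The chromosomal passenger complex corrects faulty attachments and directs cytokinesis, with Aurora B (Aurkb) as its kinase and Incenp, survivin (Birc5) and borealin (Cdca8) as its other subunits. The 4 genes fell in wild-type MEFs and 3 of them in 3KR MEFs. Incenp, the scaffold, had the lowest p of the group in 3KR MEFs, and it stood at 2226, 2077 and 2108 normalized counts in untreated wild-type MEFs, 1403, 1446 and 1448 in NCS-treated wild-type MEFs, 2549.6, 2510.5 and 2451 in untreated 3KR MEFs and 2027, 2068 and 1948 in NCS-treated 3KR MEFs. All NCS samples lay below the untreated samples of their genotype, with log2 changes of -0.58 ± 0.041 and -0.31 ± 0.040. Cdca8 was at 1354, 1312 and 1504 normalized counts in untreated wild-type MEFs, 808, 774 and 826 in NCS-treated wild-type MEFs, 1647, 1595 and 1588 in untreated 3KR MEFs and 1223, 1229.8 and 1230.4 in NCS-treated 3KR MEFs. The 4 groups were separate, with changes of -0.80 ± 0.053 and -0.39 ± 0.050. Birc5 changed by log2 -0.35 ± 0.056 in wild-type MEFs, while its value of -0.043 ± 0.054 in 3KR MEFs was not called (adjusted p = 0.595, edgeR). Aurkb changed by log2 -0.39 ± 0.050 and -0.16 ± 0.048, and it lost its call in 3KR MEFs without NCS replicate 3 (adjusted p = 0.0897) or untreated replicate 3 (adjusted p = 0.0535).

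Of the 7 centromere and kinetochore genes, 5 fell in each genotype and the same pair, Spc24 and Spc25, was not called. Cenpf, a large kinetochore protein that peaks in G2, had the largest fall of all members in both genotypes. It stood at 1293, 1340.1 and 1468 normalized counts in untreated wild-type MEFs, 486, 446 and 419 in NCS-treated wild-type MEFs, 1809, 1924 and 1840.3 in untreated 3KR MEFs and 803, 750.2 and 827 in NCS-treated 3KR MEFs. The 4 groups were separate, and the level fell by 67.1% in wild-type MEFs (log2 -1.60 ± 0.064, adjusted p = 8.35e-15, edgeR) and by 57.2% in 3KR MEFs (-1.22 ± 0.059, adjusted p = 1.75e-13). Ndc80 and Nuf2, which form the arm of the NDC80 complex that holds microtubules, changed by log2 -0.75 ± 0.072 and -0.61 ± 0.052 in wild-type MEFs. Spc24 and Spc25, the arm of the same complex that faces the centromere, had log2 values of 0.16 ± 0.092 (adjusted p = 0.228, edgeR) and -0.051 ± 0.068 (adjusted p = 0.645), and neither was called. Without NCS replicate 3, Spc24 was called higher in wild-type MEFs (log2 0.25, adjusted p = 0.0449). In 3KR MEFs their values were 0.0015 and 0.013, neither called. Cenpe, the kinesin that carries chromosomes to the metaphase plate, changed by log2 -0.90 ± 0.056 and -0.77 ± 0.055, and Cenpa, the centromeric histone, by -0.53 ± 0.055 and -0.33 ± 0.053.

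Separase (Espl1) cuts cohesin at anaphase, securin (Pttg1) holds it back, and the shugoshins (Sgo1 and Sgo2a) protect centromeric cohesin. Of the 4 genes, 3 fell in each genotype. Espl1 was at 1171, 1156 and 1227 normalized counts in untreated wild-type MEFs, 596, 635 and 633 in NCS-treated wild-type MEFs, 1490.5, 1415 and 1404 in untreated 3KR MEFs and 846, 896 and 947 in NCS-treated 3KR MEFs. The groups with and without NCS did not overlap, with log2 changes of -0.93 ± 0.055 and -0.68 ± 0.053. Sgo2a, the member with the lowest level per length, had 258, 286 and 286 normalized counts in untreated wild-type MEFs, 159, 159 and 168 in NCS-treated wild-type MEFs, 288, 282 and 314 in untreated 3KR MEFs and 246, 196 and 236 in NCS-treated 3KR MEFs. The fall of Sgo2a was -0.77 ± 0.10 and -0.38 ± 0.098 as log2 changes, with untreated samples of the genotypes overlapping. Sgo1 changed by log2 -0.60 ± 0.074 and -0.23 ± 0.069, and its call in 3KR MEFs was lost without NCS replicate 1 (adjusted p = 0.0606), NCS replicate 3 (0.0681) or untreated replicate 2 (0.075). The log2 value of Pttg1 was -0.21 ± 0.078 in wild-type MEFs and was not called (adjusted p = 0.056, edgeR). With a block for each genotype and replicate number, which treats same-numbered samples as pairs, it was called (log2 -0.21, adjusted p = 0.03). Pttg1 was also called lower with library totals (adjusted p = 0.0167, edgeR), no filter on low counts (0.0245) or at least 10 counts in every sample (0.0396). The same held without NCS replicate 2 (0.0195) or untreated replicate 1 (0.04925), while DESeq2 and the remaining fits did not call it.

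Cdc20 and the ubiquitin-conjugating enzyme Ube2c work with the APC/C to destroy cyclin B and securin. Cdc20 was at 3045, 3023 and 3008 normalized counts in untreated wild-type MEFs, 1808, 1866 and 1779 in NCS-treated wild-type MEFs, 3308, 3384 and 3412 in untreated 3KR MEFs and 2362, 2225 and 2309 in NCS-treated 3KR MEFs. Every NCS sample lay below every untreated sample of the same genotype, with log2 changes of -0.74 ± 0.037 and -0.55 ± 0.036. Ube2c was at 2184, 2206 and 2278 normalized counts in untreated wild-type MEFs, 1646, 1742 and 1663 in NCS-treated wild-type MEFs, 2410.5, 2304 and 2309.5 in untreated 3KR MEFs and 2212, 2357 and 2349 in NCS-treated 3KR MEFs. Ube2c fell only in wild-type MEFs (-0.40 ± 0.041, adjusted p = 8.15e-08, edgeR). In 3KR MEFs its samples with and without NCS overlapped (-0.02 ± 0.040, adjusted p = 0.751), and the difference between the genotypes passed the test (0.38 ± 0.058, adjusted p = 0.000255). Exons of Elovl1 overlap Cdc20, and exons of Tnnc2 overlap Ube2c, on the other strand. Other counted genes overlap exons of Cdc25b, Cdc25c, Cdca8, Sgo2a, Kif18a, Kif20a, Kif4, Nusap1 and Prc1 in the same way. On the same strand, exons of Tex52 overlap Foxm1 and those of Gm23451 overlap Top2a.

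The 9 mitotic kinesins, motor proteins that build the spindle and move chromosomes, fell in wild-type MEFs, and 8 of 9 fell in 3KR MEFs. Kif2c, which takes apart microtubule ends at kinetochores, had 1414, 1453 and 1511 normalized counts in untreated wild-type MEFs, 655, 685 and 625 in NCS-treated wild-type MEFs, 1813, 1745 and 1820.3 in untreated 3KR MEFs and 1082, 1014 and 1063 in NCS-treated 3KR MEFs. Its 4 groups were separate, with log2 changes of -1.16 ± 0.051 and -0.77 ± 0.048. Kif23, the motor subunit of the centralspindlin complex, had 1653, 1708 and 1873 normalized counts in untreated wild-type MEFs, 801, 829 and 866 in NCS-treated wild-type MEFs, 2116, 2278 and 2130.4 in untreated 3KR MEFs and 1171, 1190.1 and 1195 in NCS-treated 3KR MEFs. It lay lower in all NCS samples, with -1.07 ± 0.052 and -0.87 ± 0.050. Kif11, the motor that pushes spindle poles apart, had 1836, 1818 and 1778 normalized counts in untreated wild-type MEFs, 946, 935 and 961 in NCS-treated wild-type MEFs, 2196, 2231 and 2180.4 in untreated 3KR MEFs and 1466, 1525 and 1429 in NCS-treated 3KR MEFs. Its changes were -0.94 ± 0.043 and -0.58 ± 0.041. Kif22, a chromosome-arm kinesin, had 1318, 1332 and 1359 normalized counts in untreated wild-type MEFs, 756, 759.7 and 744 in NCS-treated wild-type MEFs, 1811, 1776 and 1779 in untreated 3KR MEFs and 1316, 1266 and 1220.0 in NCS-treated 3KR MEFs. The NCS-treated 3KR samples of Kif22 lay below the untreated wild-type samples by a narrow margin, and its changes were -0.83 ± 0.047 and -0.50 ± 0.044. Kif14, a cytokinesis motor, fell most in the group (-1.38 ± 0.076 and -1.12 ± 0.069). Kif15 fell least, with -0.28 ± 0.062 in wild-type MEFs, and was not called in 3KR MEFs (-0.071 ± 0.060). Kif18a, Kif20a and Kif4 lay between them in wild-type MEFs, at -0.88, -0.80 and -0.70, and Kif4 is the only X-linked member.

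Among the 8 genes for spindle assembly and microtubule binding, 5 fell and 3 rose in each genotype. Aspm, which focuses spindle poles, stood at 1153, 1091 and 1239.8 normalized counts in untreated wild-type MEFs, 437, 393 and 366 in NCS-treated wild-type MEFs, 1581, 1435 and 1537 in untreated 3KR MEFs and 653, 641 and 667 in NCS-treated 3KR MEFs. The 4 groups were separate, with a fall of 65.8% in wild-type MEFs (log2 -1.55 ± 0.067, adjusted p = 3.74e-14, edgeR) and 56.9% in 3KR MEFs (-1.21 ± 0.062, adjusted p = 6.51e-13). Tpx2, which activates Aurora A on the spindle, changed by log2 -0.65 ± 0.037 and -0.40 ± 0.037. For Hmmr, Dlgap5 and Nusap1 the wild-type changes were -0.84, -0.89 and -0.73, and those in 3KR MEFs -0.52, -0.57 and -0.55.

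Psrc1, Gtse1 and Ckap2 rose. Psrc1 and Gtse1 bind microtubules and their growing ends and are known p53-inducible genes, and Ckap2 stabilises spindle microtubules. Psrc1 was at 2835, 2808 and 2967 normalized counts in untreated wild-type MEFs, 3656, 3761 and 3773 in NCS-treated wild-type MEFs, 2178, 2117 and 2050.4 in untreated 3KR MEFs and 3621, 3498 and 3482 in NCS-treated 3KR MEFs. The untreated 3KR samples were the lowest and the samples with NCS the highest, with log2 changes of 0.37 ± 0.036 (adjusted p = 2.87e-08, edgeR) in wild-type and 0.74 ± 0.037 (adjusted p = 3.32e-13) in 3KR MEFs. Gtse1 was at 1845, 1751 and 1933 normalized counts in untreated wild-type MEFs, 2380.1, 2424 and 2207 in NCS-treated wild-type MEFs, 1588, 1762 and 1634 in untreated 3KR MEFs and 2593, 2778 and 2450.4 in NCS-treated 3KR MEFs. All NCS samples lay above all untreated samples, with changes of 0.34 ± 0.052 (adjusted p = 2.85e-05, edgeR) and 0.65 ± 0.053 (adjusted p = 1.35e-09). Ckap2 was at 1247, 1265 and 1106 normalized counts in untreated wild-type MEFs, 2029.6, 1978 and 1796 in NCS-treated wild-type MEFs, 1423, 1379 and 1418 in untreated 3KR MEFs and 2222, 2246 and 2232 in NCS-treated 3KR MEFs. Its rise was 1.6-fold in wild-type and 1.59-fold in 3KR MEFs (log2 0.68 ± 0.052 and 0.67 ± 0.051), and the difference of -0.0077 ± 0.073 between them was not called.

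The 4 genes of the central spindle and cytokinesis fell in both genotypes. Prc1, which bundles the microtubules of the central spindle, had 3785, 3872 and 4104 normalized counts in untreated wild-type MEFs, 2419, 2501 and 2474 in NCS-treated wild-type MEFs, 4551, 4614 and 4486 in untreated 3KR MEFs and 3454, 3371 and 3349.9 in NCS-treated 3KR MEFs. Racgap1, the partner of Kif23 in centralspindlin, had 2894, 2985 and 3021 normalized counts in untreated wild-type MEFs, 1761, 1857 and 1677 in NCS-treated wild-type MEFs, 3379, 3637 and 3523 in untreated 3KR MEFs and 2411, 2491 and 2503 in NCS-treated 3KR MEFs. Both genes had 4 separate groups. Their log2 changes were -0.67 ± 0.036 and -0.42 ± 0.035 for Prc1, and -0.75 ± 0.042 and -0.51 ± 0.041 for Racgap1. Ect2, the exchange factor that turns on RhoA at the furrow, changed by log2 -0.87 ± 0.055 and -0.58 ± 0.053, and the furrow protein Anln by -0.50 ± 0.035 and -0.33 ± 0.035.

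Mki67, which coats mitotic chromosomes and is the common marker of dividing cells, stood at 4464, 4486 and 4891 normalized counts in untreated wild-type MEFs, 2625, 2525 and 2532 in NCS-treated wild-type MEFs, 6317, 6592 and 6555 in untreated 3KR MEFs and 4176, 4175 and 3982 in NCS-treated 3KR MEFs. All 4 groups were separate, with log2 changes of -0.85 ± 0.039 and -0.66 ± 0.037. Top2a, the topoisomerase that untangles sister chromatids, had the highest normalized counts of the members and changed by log2 -0.34 ± 0.031 and -0.17 ± 0.031. Of the transcription factors, Foxm1 drives late cell cycle genes, and it stood at 2152, 2331 and 2526 normalized counts in untreated wild-type MEFs, 1650.3, 1716 and 1858 in NCS-treated wild-type MEFs, 2565, 2581 and 2501 in untreated 3KR MEFs and 2341, 2244 and 2191 in NCS-treated 3KR MEFs. Its NCS samples lay below the untreated samples of the same genotype, with changes of -0.43 ± 0.051 (adjusted p = 1.05e-06, edgeR) and -0.17 ± 0.051 (adjusted p = 0.0118). The call of Foxm1 in 3KR MEFs was lost without NCS replicate 3 (adjusted p = 0.0654). Mybl2, B-MYB, was not called in either genotype (-0.14 ± 0.068 and 0.10 ± 0.065). Without NCS replicate 3 it was called lower in wild-type MEFs (log2 -0.21, adjusted p = 0.0289).

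Members with a longer span on the genome tended to fall more. Spearman's rho between span and log2 fold change was -0.40 in wild-type and -0.46 in 3KR MEFs across the 55 members, against 0.0074 and -0.092 across 14794 genes with a length. The points are genes measured in the same 12 libraries and are not independent. The median change was -0.53 in wild-type MEFs for the 27 members of 4393 to 23001 bases and -0.85 for the 28 members of 26578 to 101478 bases. In 3KR MEFs the values were -0.23 and -0.56. Exon length ran with the change across the members nearly as closely as span (rho -0.37 in wild-type and -0.42 in 3KR MEFs). Level per length also ran with the change (rho 0.35 and 0.34), and the part of each was not tested.

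Untreated 3KR MEFs held more of these transcripts than untreated wild-type MEFs. Of the 55 members, 46 were higher, 2 were lower and 7 were not called, with 22.1% of all genes called higher and 23.6% lower. The median log2 difference was 0.24, against -0.00036 over all genes, and in 46 members every 3KR sample lay above every wild-type sample, against 27.0% of all genes. Spc24 had the largest difference, 0.62 ± 0.089, followed by Mki67 at 0.49 ± 0.037 (adjusted p = 1.19e-10, edgeR). Kif22 was higher by 0.42 ± 0.043 (adjusted p = 2.55e-08) and Bub1b by 0.36 ± 0.043 (adjusted p = 2.21e-07). The 2 lower members were Psrc1, at -0.45 ± 0.037 (adjusted p = 5.53e-10, edgeR), and Gtse1, at -0.16 ± 0.054 (adjusted p = 0.0201). The Gtse1 samples of the genotypes overlapped, and its call was lost without untreated 3KR replicate 1 (adjusted p = 0.109) or 3 (0.0721), or without untreated wild-type replicate 3 (0.0705). Among the higher members, Ccnb1 lost its call without untreated 3KR replicate 1 (0.165) or wild-type replicate 2 (0.102). Pttg1 lost it without untreated 3KR replicate 1 (0.113) or wild-type replicate 1 (0.0800). Spc25 lost it by DESeq2 (0.0698), with at least 10 counts in every sample (0.0647) and in several fits that left samples out. The 7 members not called were Bora, Bub1, Sgo2a, Ube2c, Kif18a, Anln and Foxm1. Foxm1 was near the threshold (adjusted p = 0.0518, edgeR). It was called higher with DESeq2 size factors (0.0433), library totals (0.0245) or no filter on low counts (0.0114). The same held without untreated wild-type replicate 3 (0.00175) or wild-type replicate 3 in both treatments (1.88e-05). DESeq2 and the remaining fits without a block did not call it. With the replicate number as a block, Foxm1 was called higher (log2 0.12, adjusted p = 0.0387). Untreated samples of the same number in the 2 genotypes correlated at -0.015 to -0.0059 in their deviations. This block therefore matches samples with no shown pairing.

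After NCS the median difference between the genotypes was larger. Of the 55 members, 54 were higher in 3KR than in wild-type MEFs, none was lower and only Psrc1 was not called (-0.078 ± 0.036, adjusted p = 0.078, edgeR), with 22.9% of all genes called higher and 23.6% lower. In the same 54 members the treated samples of the genotypes did not overlap, as in 27.0% of all genes in that direction, and in Psrc1 all 3KR samples lay below all wild-type samples. At an unadjusted p under 0.05, 1 member was lower, and by DESeq2 0. The median log2 difference was 0.50, against 0.0037 over all genes. The largest difference was that of Cenpf (0.82 ± 0.067), and the lowest p-values were those of Mki67 (0.68 ± 0.039, adjusted p = 7.37e-13, edgeR), Kif22 (0.75 ± 0.047, 4.59e-12) and Bub1b (0.74 ± 0.048, 7.38e-12). Kif18a, at 0.23 ± 0.081, lost its call without NCS-treated 3KR replicate 2 (adjusted p = 0.063) or wild-type replicate 1 (0.0935) or 3 (0.0675). It also lost its call with all samples by DESeq2 (0.05015), and in edgeR without wild-type replicate 3 in both treatments (0.0536). Gtse1, at 0.16 ± 0.051, lost it without 3KR replicate 2 (0.122) or wild-type replicate 3 (0.0614).

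Markers of other cell types moved with the genotype as well. The 9 macrophage markers summed to 3655 to 4605 normalized counts in wild-type and 6710 to 7536 in 3KR MEFs, with 9 of 9 called higher without treatment and 8 of 9 after NCS. The 7 Schwann cell markers summed to 4887 to 5123 in wild-type and 936 to 1125 in 3KR MEFs. In each treatment 4 of 7 were called lower, and after NCS 1 was called higher. Of 5 muscle markers, 3 were tested and 2 called lower, with sums of 4535 to 4762 against 1547 to 1660. Of 6 epithelial markers 4 were tested, 2 higher and 2 lower in 3KR MEFs, and of 6 endothelial markers 4 were tested and 1 was lower. Epithelial sums were 533 to 593 against 328 to 473 normalized counts, and endothelial sums 208 to 257 against 187 to 205. The endothelial marker Cldn5 was at or under 3 counts in all samples, as was 1 epithelial marker in 3KR MEFs and 1 muscle marker in untreated 3KR MEFs. Of the 11 fibroblast markers, 9 were higher and 2 lower in 3KR MEFs without treatment, and 8 and 2 after NCS. After NCS 5 of them rose and 1 fell in wild-type MEFs, 2 rose and 6 fell in 3KR MEFs, and 5 were called lower in the difference in response. The part of these cells, and that of sex, in the genotype differences was not tested. After NCS in wild-type MEFs none of the macrophage or Schwann markers was called by edgeR or DESeq2, and 1 macrophage marker was higher at an unadjusted p under 0.05. After NCS in 3KR MEFs 2 Schwann markers were lower.

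**Figure D5:**
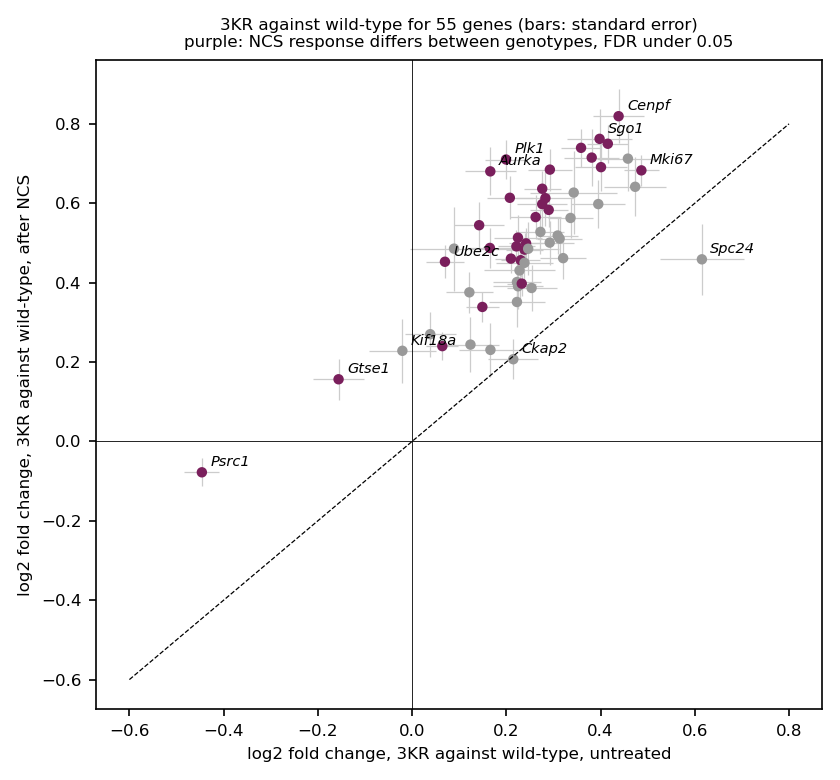
Log2 difference between 3KR and wild-type MEFs (3KR minus wild type) without treatment (x axis) and after NCS (y axis) for the 55 members, with standard errors as bars and a dashed line where both are equal. Points lie above the line in 53 of 55 members, purple points are the 30 members whose NCS response differed between genotypes, and Psrc1 is the only point below 0 after NCS.

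The difference in response was tested directly as the interaction of genotype and NCS. Of the 55 members, 30 passed with a smaller fall or a larger rise in 3KR MEFs and none passed the other way, where 1.86% of all genes were called in the first direction and 1.87% in the second. In the second direction the count was also 0 at an unadjusted p under 0.05 and by DESeq2. The median difference was 0.25 on the log2 scale, against 0.0039 over all genes, and 53 of 55 fitted differences were above 0. Plk1 differed by 0.51 ± 0.066 (adjusted p = 4.28e-05, edgeR) and Aurka by 0.51 ± 0.081 (adjusted p = 0.000398). Psrc1 differed by 0.37 ± 0.051 (adjusted p = 0.000105), rising more in 3KR MEFs from a lower untreated level, as did Gtse1 (0.31 ± 0.074, adjusted p = 0.0172). Kif11 differed by 0.36 ± 0.059 (adjusted p = 0.000582, edgeR) and Bub1b by 0.38 ± 0.064 (adjusted p = 0.000769). By role, 4 of 4 cytokinesis genes, both APC/C genes, both chromosome genes, 6 of 8 spindle assembly genes, 4 of 6 cyclin and Cdc25 genes and 3 of 4 chromosomal passenger genes passed. The counts were 1 of 7 for kinetochore genes (Cenpf), 3 of 9 for kinesins and 1 of 4 for cohesion genes, and Foxm1 missed the threshold narrowly (adjusted p = 0.0505, edgeR). Whether the roles differ in these counts was not tested. This comparison uses the same 12 samples as the others, so it is no separate evidence for them.

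The number of members passing this test was lower without any single 3KR sample. It was 18 without untreated 3KR replicate 3 or any 1 of the NCS-treated 3KR replicates 1, 2 and 3, and 19 without untreated 3KR replicate 1 or 2. Leaving out 1 wild-type sample gave 22 to 32. With a block for each genotype and replicate number it was 38, which added Ccnb2, Bub1, Aurkb, Cenpa, Espl1, Kif20a, Kif23 and Foxm1. That block treats same-numbered samples as pairs, although the deviations of the 3KR pairs correlated at -0.11 to -0.023. Without wild-type replicate 3 in both treatments the number passing was 37. No member was called in the other direction under any of these settings. Over all genes the share called in the first direction moved as well, to 4.90% with the block, 6.01% without wild-type replicate 3 in both treatments, 1.01% to 1.33% without 1 3KR sample and 1.06% to 3.53% without 1 wild-type sample. Of the 30 members, 15 kept their call under each alternative run, namely Ccna2, Ccnb1, Plk1, Aurka, Bub1b, Incenp, Cdca8, Ube2c, Kif11, Kif22, Kif2c, Tpx2, Hmmr, Psrc1 and Prc1. In at least 6 of the 12 fits without 1 sample, 12 members lost it, namely Cdk1, Cdc25b, Ttk, Birc5, Sgo1, Cdc20, Dlgap5, Aspm, Ect2, Anln, Mki67 and Top2a. Gtse1, Racgap1 and Cenpf lost it in 3, 3 and 1 of these fits. Ttk also lost it with all samples by DESeq2 (adjusted p = 0.0654), and in edgeR with DESeq2 size factors (0.0544) or library totals (0.0535).

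Other genes of the cell cycle were read from the same fit. Of all genes tested, 12.4% fell and 14.3% rose after NCS in wild-type MEFs, and 15.0% and 15.8% in 3KR MEFs. Between genotypes 22.1% were higher and 23.6% lower without treatment, and 22.9% and 23.6% after NCS. In the difference in response 1.86% were called higher and 1.87% lower. Of 55 further G2/M and mitosis genes, 39 fell and 5 rose after NCS in wild-type MEFs and 30 fell and 5 rose in 3KR MEFs, with medians of -0.41 and -0.22. Among them, Depdc1a changed by log2 -1.23 ± 0.079 and -0.83 ± 0.074, and Pimreg by -1.08 ± 0.061 and -0.75 ± 0.059. In the genotype comparison 39 were higher and 2 lower without treatment, and 50 and 2 after NCS, while 12 passed the test of the difference in response, all with a smaller fall or larger rise in 3KR MEFs.

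Condensin and cohesin genes compact chromosomes and hold sister chromatids together. Of 17, 10 fell and 1 rose in wild-type MEFs and 9 fell in 3KR MEFs, with medians of -0.11 and -0.12. The shares over all genes were 12.4% lower and 14.3% higher in wild-type MEFs, and 15.0% and 15.8% in 3KR MEFs. Ncapd2, a condensin subunit, changed by log2 -0.45 ± 0.042 and -0.16 ± 0.041, and Stag1, a cohesin subunit, by -0.31 ± 0.041 and -0.31 ± 0.040. Of 17 APC/C genes, 8 fell in wild-type MEFs, and in 3KR MEFs 6 fell and 1 rose. The APC/C activator Fzr1 (Cdh1) changed by log2 -0.29 ± 0.038 and -0.29 ± 0.038, and the core subunit Cdc27 by -0.18 ± 0.031 and -0.17 ± 0.031. Of 13 MuvB, DREAM and repressor E2F genes, 1 fell in wild-type MEFs, and 3 fell and 3 rose in 3KR MEFs. The pocket protein gene Rbl1 (p107) changed by log2 -0.18 ± 0.060 and -0.30 ± 0.057, and Tfdp2, an E2F partner, was not called (-0.12 ± 0.051 and -0.12 ± 0.049).

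Few of the S phase genes fell. Of 34, 5 rose and 1 fell in wild-type MEFs and 10 rose in 3KR MEFs, with medians of 0.00073 and 0.097. Over all genes 14.3% rose and 12.4% fell in wild-type MEFs, and 15.8% and 15.0% in 3KR MEFs. The count of S phase genes that rose in wild-type MEFs was thus near the share over all genes. Rrm2, a subunit of ribonucleotide reductase, rose by 0.30 ± 0.041 and 0.41 ± 0.041 on the log2 scale, and Mcm7, of the replicative helicase, by 0.18 ± 0.037 and 0.23 ± 0.036. Between genotypes, S phase genes were higher in 3KR MEFs in 27 of 34 without treatment and in 30 of 34 after NCS, with 1 lower in each, and none passed the test of the difference in response in edgeR or DESeq2, with 5 at an unadjusted p under 0.05, each above 0. Of 20 p53 target genes, 16 rose and 2 fell in wild-type MEFs and 17 rose and 2 fell in 3KR MEFs. Cdkn1a, which encodes p21, stood at 17086, 17068 and 18008 normalized counts in untreated wild-type MEFs, 38955, 39929 and 39430.0 in NCS-treated wild-type MEFs, 9734, 9833 and 9882 in untreated 3KR MEFs and 24800.0, 24533 and 25138 in NCS-treated 3KR MEFs. It rose 2.26-fold and 2.53-fold, and the untreated 3KR samples started lower by 0.83 ± 0.028 (log2). Pmaip1 (Noxa), a p53-induced death gene, rose by 2.05 ± 0.061 and 2.35 ± 0.082. In untreated 3KR MEFs, 15 of the 20 p53 targets were lower than in wild-type MEFs and 1 was higher, and after NCS 14 were lower and 2 higher. In the difference in response 7 of the 20 were called higher and none lower (edgeR), with 0 lower at an unadjusted p under 0.05 and by DESeq2.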

How the data were processed

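RNA of 12 MEF samples was measured by poly(A) RNA-seq with a stranded kit. The authors deposited whole-number read counts per Ensembl gene, neither normalized nor filtered, and the submitters' processing notes name TopHat, HTSeq, DESeq and mm9. Versions and the strand setting of the counting are not given in the sources used here, so overlapping genes on opposite strands may share reads, and positions are those of GRCm38 and not of mm9. Of 37991 identifiers, 32919 were in GENCODE M21, which gave symbols, exon lengths and positions. Depth was 33203757 to 45279321 counted reads per sample.

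Genes passing filterByExpr (15327) were scaled by TMM and compared by two-sided quasi-likelihood tests (edgeR 4.0.16, R 4.3.3). The model held a term per group, and p-values were adjusted over all genes by Benjamini-Hochberg (threshold 0.05). The standard error is the log2 fold change divided by the root of F. Normalized counts used the size factors of DESeq2 1.42.0, and TPM the union exon length. Groups that do not overlap are those where every sample of one lies above every sample of the other. The 55 members, the other lists and the rule for named genes were chosen with earlier results of these data known. By the rule, values in every sample are given for the member of each role with the lowest p after NCS in each genotype, the 3 called members with the lowest p per direction between genotypes, up to 5 for the difference in response, the highest and lowest level per length, and from each companion list the 2 genes with the lowest p for NCS in wild-type MEFs are named. Others are named to account for counts or for a limit, chosen after their values were seen. Promoters came from RefSeq GRCm38.p6 (250 bases before to 50 after the start) and matched 45 of the 55 members. Those without one were Ccna2, Cdc25c, Bora, Aurkb, Incenp, Spc24, Kif20a, Tpx2, Dlgap5 and Foxm1. The fit was tested on simulated counts. In the wild-type samples the deviations of same-numbered samples with and without NCS correlated at 0.119 to 0.263 over 12296 genes. Each value was above 0.1. In 3KR samples the values were -0.106 to -0.023. Deviations were taken from the mean of each group, and wild-type replicate 3 stood apart in both treatments. Replicates 1 and 2 can then correlate without pairing, so these values cannot show that the number pairs the samples. Samples with different numbers were not compared in this way, and no label gives a pairing. Alternatives were other scalings, filters, DESeq2, the replicate block, fits on only the 6 samples compared, and leaving out samples. For NCS and the difference in response the block held a term for each genotype and number. Between genotypes it held a term for the number alone.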

Additional observations from a re-analysis of the deposited data

Results flagged for a closer look

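The response to NCS differed between the genotypes in 30 of the 55 members, by the test of the difference itself in edgeR, and each of these differences was positive, that is a smaller fall or a larger rise in 3KR MEFs. Of the 30, 15 lost their call under at least 1 alternative, and 12 of these (Cdk1, Cdc25b, Ttk, Birc5, Sgo1, Cdc20, Dlgap5, Aspm, Ect2, Anln, Mki67 and Top2a) in at least 6 of the 12 fits without 1 sample. Of the kinases, cyclins and phosphatases, the log2 differences (3KR minus wild-type) were those of Plk1 (0.51), Aurka (0.51), Ccnb1 (0.40), Ccna2 (0.29), Cdc25b (0.29) and Cdk1 (0.23). For the spindle checkpoint, the chromosomal passenger complex, the kinetochore and cohesion they were those of Bub1b (0.38), Ttk (0.33), Cdca8 (0.41), Birc5 (0.30), Incenp (0.27), Cenpf (0.38) and Sgo1 (0.36). Among kinesins and spindle genes the log2 differences were those of Kif2c (0.39), Kif11 (0.36), Kif22 (0.33), Hmmr (0.32), Dlgap5 (0.32), Aspm (0.33) and Tpx2 (0.26), and of the genes that rose, Psrc1 (0.37) and Gtse1 (0.31). The remaining members were Ube2c (0.38), Cdc20 (0.19), Ect2 (0.29), Prc1 (0.25), Racgap1 (0.24), Anln (0.18), Mki67 (0.20) and Top2a (0.16). Outside the members, the named genes whose responses differed were Depdc1a (0.40), Pimreg (0.33), Ncapd2 (0.28) and Cdkn1a (0.16).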

How the results depend on the processing

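No call of a member changed direction under any alternative run, and 51, 47, 46, 53 and 29 of the 55 members kept both the side of the threshold and the sign of their value under every one, members not called included, in the order NCS in wild-type MEFs, NCS in 3KR MEFs, genotype without treatment, genotype after NCS and difference in response. The median change of the members after NCS moved to -0.79 in wild-type and -0.54 in 3KR MEFs with library totals only, and to -0.72 in wild-type MEFs without wild-type replicate 3 in both treatments, which also gave a median difference in response of 0.23. Leaving out 1 sample gave medians of -0.76 to -0.72 in wild-type MEFs and -0.50 to -0.45 in 3KR MEFs. It gave 18 to 32 members for the difference in response (30 with all samples), and the cause was not tested. Relative to TMM effective library size the members took 0.254%, 0.170%, 0.298% and 0.232% in untreated and treated wild-type and untreated and treated 3KR MEFs. With only the 200 bases before the start, TTTGAA was held by 14 members (31.1%, against 14.4% of all genes) and TTTAAA by 7 (15.6%, against 10.7%). CCAAT was held by 33 (73.3%, against 32.75%).

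With the replicate block the number of members called was 52 and 47 for NCS in wild-type and 3KR MEFs, 49 and 54 for genotype without treatment and after NCS, and 38 for the difference in response. It added Pttg1 to the first of these, Foxm1 to the third and 8 members to the last, as given with the results, and changed no other call of a member. Over all genes, 285 differences in response were higher and 287 lower, against 751 and 628 with the block and 936 and 906 without wild-type replicate 3 in both treatments. For NCS in wild-type MEFs, 2189 genes were higher and 1901 lower, against 1462 and 1626 in a fit of only the 6 samples compared. The lowest raw count of any member in any sample was 155, for Sgo2a.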
